A study of Mus musculus with 2 samples.

Results

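The 41 genes described here encode the enzymes of glycolysis and of glycogen turnover in skeletal muscle, the glucose and lactate carriers of the muscle membrane and the glycerophosphate shuttle. They were chosen by name and role, with earlier results of these data known, as the glycolytic isoenzymes, the PFKFB regulators, the glycogen enzymes, the transporters and the shuttle dehydrogenases. All 41 were among the 34745 genes of the deposited count table, and 40 had a summed count of at least 20 over both libraries and were compared; the brain aldolase Aldoc, with 4 counts in scKO and 5 in flox/flox, was not. RNA sequencing was done on the gastrocnemius, a calf muscle, of 8-week-old C57BL/6 mice. One library came from CIPC-scko mice, which by the series title lack Cipc in satellite cells, the stem cells of muscle. The other came from CIPC-flox/flox mice, which by that label carry Cipc flanked by loxP sites on both alleles. The driver of the recombinase, the number of animals behind a library and the time of day of collection are not given in the labels used here. The title also names mdx mice, which lack dystrophin; the labels of these libraries name no mdx allele, and whether they carried it is not settled here. With 1 library per genotype there was no test between genotypes, and every difference compares these libraries.

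Glycolysis splits glucose into pyruvate in the cytosol and yields ATP without oxygen, and fast muscle fibres depend on it during short bursts of work. Muscle stores glucose as glycogen, which phosphorylase breaks down and glycogen synthase builds up, and many steps are run by isoenzymes that differ between muscle, liver, brain and dividing cells. The muscle forms, among them Pfkm, Pgam2, Eno3 and Pygm, are made at very high levels in fast fibres. CIPC is known as an inhibitor of CLOCK and BMAL1, the transcription factor pair of the circadian clock, which binds the DNA letters CACGTG (the E-box).

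The scKO library held 13842100 counts and the flox/flox library 14727219, so 1 count equalled 0.0722 CPM in scKO and 0.0679 CPM in flox/flox (the count divided by the library total in units of 1e6). Cipc itself had 111 counts in scKO and 658 in flox/flox, a ratio of 0.175 (0.142 to 0.214). These counts are of whole muscle, and whether Cipc was lower in satellite cells alone was not tested. Brackets after a ratio give an exact conditional binomial 95% interval, which covers counting error only and neither animals nor PCR copies; ratios are of TMM-scaled counts, scKO over flox/flox. Pan-muscle and fast fibre markers were abundant in both libraries, with 50535 CPM in scKO and 51678 CPM in flox/flox for Acta1, Ckm, Mb and Ttn together. The 8 fast fibre markers took 96034 CPM in scKO and 102517 CPM in flox/flox, and the 6 slow fibre markers took 3531 CPM in scKO and 4037 CPM in flox/flox. Markers of other cell types were low: endothelial markers summed to 200 CPM in scKO and 179 CPM in flox/flox, fibro-adipogenic ones to 287 CPM in scKO and 312 CPM in flox/flox, and satellite cell ones to 26.9 CPM in scKO and 24.7 CPM in flox/flox. Among the last, Pax7 was called lower, with 39 counts in scKO and 69 in flox/flox (ratio 0.586, 0.385 to 0.880). The other 4 were not called and their intervals include 1. Their ratios were 0.888 for Calcr, 1.13 for Cdh15, 1.26 for Vcam1 and 1.53 for Myf5. The 5 erythroid markers summed to 113 CPM in scKO and 144 CPM in flox/flox, with all 5 ratios and their intervals below 1 and 4 called lower. Their part in the results below was not tested. In bulk RNA, fewer cells of a type and less RNA per cell cannot be told apart.

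As a whole, the RNA of glucose and glycogen metabolism took nearly the same share of the total counts of both libraries, and 5 genes made up most of it. The 41 genes held 517870 counts, or 3.741% of all counts in scKO (exact binomial 95% interval 3.731% to 3.751%), and 550653 counts, or 3.739% in flox/flox (3.729% to 3.749%). The 5 most counted genes held 63.2% of these counts in scKO and 63.6% in flox/flox. These shares are of total counts, without TMM scaling. The median log2 ratio of the 40 compared genes was 0.010, and over all 12662 compared genes it was 0.0021. A gene was called where its scaled count was at least 25% higher or at least 20% lower in scKO, the same fold in either direction, and the interval of its ratio excluded 1. Among the 40 genes, 1 was called higher in scKO, the regulator Pfkfb2, where 7.18% of all compared genes were. Called lower were 2, Pfkfb3 and the glycogen-targeting subunit Ppp1r3d, where 7.54% of all compared genes were. With total-count scaling in place of TMM, 3 were called higher and 2 lower, against 8.89% and 6.29% of all compared genes under that scaling. At 2-fold none of the 40 was called in either direction, against 1.49% of all compared genes higher and 1.91% lower. Calls were thus no more frequent in these pathways than across the table. On the log2 scale the interval lay above 0 for 9 of the 40 and below 0 for 12, against 12.8% and 12.3% of all compared genes. With total-count scaling these counts were 16 above and 9 below, against 16.6% and 9.7% of all compared genes. High counts narrow the interval, and 30 of the 40 had a summed count of at least 1000. Of those 30, 8 had an interval above 0 and 10 below, against 23.1% and 20% of the 2861 genes with as many counts. Pfkfb3 was the 1 of the 30 that was called lower, and 0 were called higher, against 4.65% of the 2861 lower and 4.75% higher; at 2-fold, 0.35% of the 2861 were called lower and 0.489% higher.

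**Figure D1:**
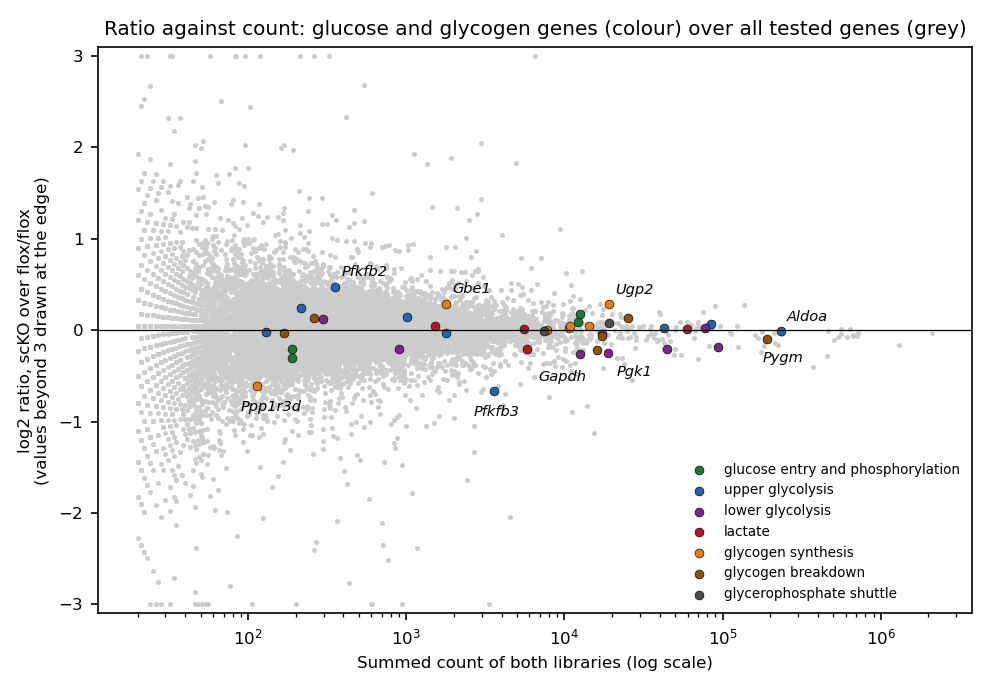
Log2 ratio of scKO over flox/flox (vertical axis) against the summed count of both libraries (horizontal log axis), with all 12662 compared genes in grey and the 40 compared genes of glucose and glycogen metabolism in colour by role. Most coloured points lie near 0 at high counts; Pfkfb3 at -0.67 and Pfkfb2 at 0.48 lie farther out.

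Levels spanned more than 4 orders of magnitude, and in 8 of the 12 isoenzyme families one form held over 97% of the summed FPKM in both libraries; the exceptions were the PFKFB enzymes, lactate dehydrogenase, the lactate carriers and the glycogen-targeting subunits of protein phosphatase 1. Levels between genes were compared as the deposited FPKM, fragments per kilobase of exon scaled to library size. They ran from 0.0521 FPKM in scKO and 0.0612 in flox/flox for Aldoc to 1736 FPKM in scKO and 1956 in flox/flox for Pgam2, the muscle phosphoglycerate mutase. For 32 of the 41 genes, the length by which the FPKM divide came to within 1% of all distinct exons in GENCODE M21 added up. That sum counts overlapping exons of different transcripts more than once, so genes with many transcripts have their FPKM set low. For Gapdh the length was 2.09 times that of the merged exons, and for Pgam2 both were 840 bases. The place of Pgam2 depends on this. Per kilobase of merged exons, scaled to library totals, Aldoa was the highest, at 2823 in scKO and 2775 in flox/flox. On that scale Pygm stood at 2020 in scKO and 2111 in flox/flox, and Eno3 at 1775 in scKO and 1957 in flox/flox. Pgam2 stayed at 1736 in scKO and 1956 in flox/flox.

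**Figure D2:**
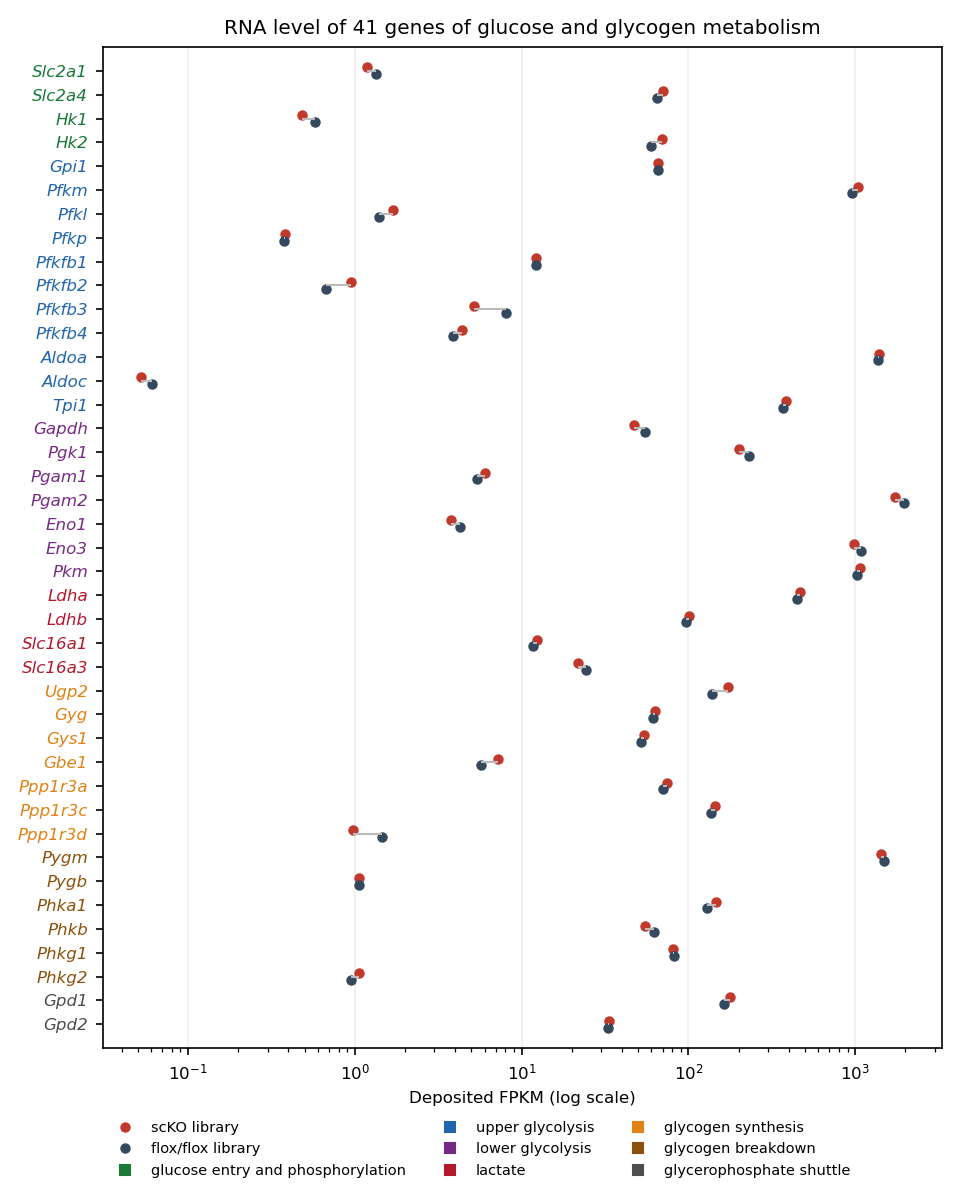
Deposited FPKM (horizontal log axis) of the 41 genes in the scKO library (red) and the flox/flox library (dark blue), with gene names coloured by role and 1 library per genotype. The muscle isoenzymes Pgam2, Pygm, Aldoa, Pkm, Eno3 and Pfkm stood near 1000 FPKM or above in both libraries, and the points of the 2 libraries nearly coincide for most genes.

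**Figure D3:**
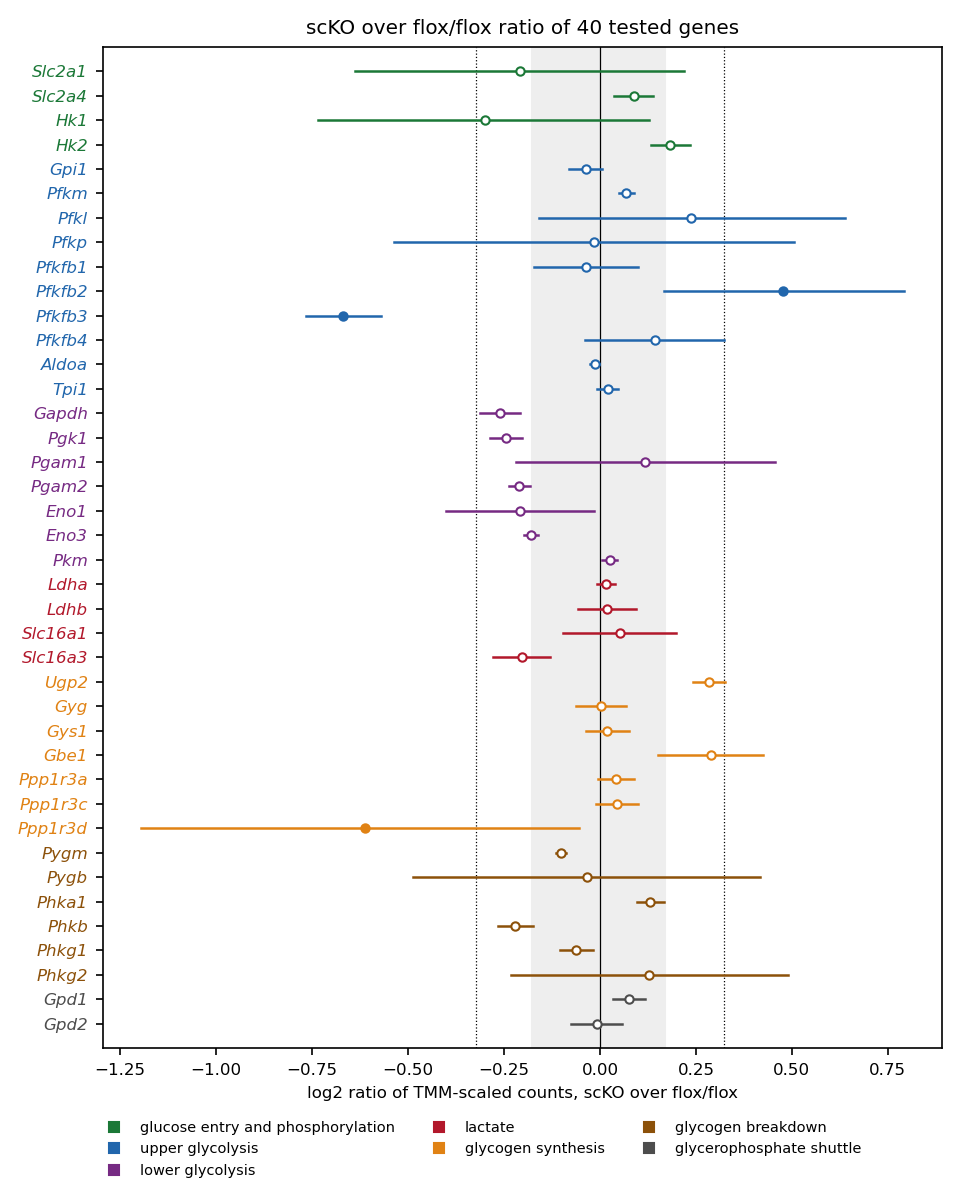
Log2 ratio of scKO over flox/flox with its 95% counting interval for the 40 compared genes, coloured by role. Filled points are the called genes Pfkfb2, Pfkfb3 and Ppp1r3d, dotted lines mark the fold set for a call, and the grey band spans the quartiles of all compared genes, -0.18 to 0.17.

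Glucose entry and phosphorylation showed slightly more RNA of the muscle forms in scKO. Slc2a4, which encodes GLUT4, the carrier that insulin and contraction bring to the muscle surface, had 6151 counts (70.4 FPKM) in scKO and 5998 (64.5 FPKM) in flox/flox, a ratio of 1.06 (1.03 to 1.10). Hk2, the hexokinase that traps glucose in muscle as glucose 6-phosphate, had 6569 counts (69.2 FPKM) in scKO and 5997 (59.4 FPKM) in flox/flox, a ratio of 1.13 (1.10 to 1.18). Both were higher by less than the fold set for a call. The widespread forms were rare: Slc2a1, which encodes GLUT1, had 86 counts in scKO and 103 in flox/flox, and Hk1 had 83 in scKO and 106 in flox/flox, with intervals that include a ratio of 1. Hk2 held 99.3% of the summed hexokinase FPKM in scKO and 99.0% in flox/flox.

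In upper glycolysis, 10 genes were compared, and the interval lay above 0 for 2, below 0 for 2 and included 0 for 6. Over all compared genes, 12.8% lay above 0 and 12.3% below. The enzymes that carry the carbon differed by little. Pfkm, the muscle subunit of phosphofructokinase-1, which commits sugar to glycolysis, had 42259 counts (1032 FPKM) in scKO and 41750 (959 FPKM) in flox/flox, a ratio of 1.05 (1.03 to 1.06). Aldolase A (Aldoa), which splits the sugar, was the most counted of the 41, with 113769 counts in scKO and 118958 in flox/flox, a ratio of 0.991 (0.983 to 0.999); its log2 ratio took the opposite sign, 0.025, with total-count scaling. The triose isomerase Tpi1 stood at 1.01 (0.995 to 1.03) and the glucose phosphate isomerase Gpi1 at 0.974 (0.946 to 1.004). All 4 ratios lay inside the quartiles of all compared genes. Among the 235 genes with a summed count of at least 10000, the log2 quartiles were narrower, -0.112 to 0.056. Pfkm, at a log2 ratio of 0.069, lay above them, and the others lay inside. The liver and platelet subunits Pfkl and Pfkp had 115 and 63 counts in scKO and 101 and 66 in flox/flox, and Pfkm held 99.8% of the phosphofructokinase-1 FPKM in both libraries.

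The larger differences lay in the PFKFB genes, the family that sets the level of a fructose bisphosphate that activates phosphofructokinase-1. Each PFKFB enzyme both makes and removes that activator, and the isoenzymes differ in the balance. Pfkfb3 (chr2:11471433-11554077, minus strand, GRCm38), whose product mainly makes it, had 1357 counts (5.19 FPKM) in scKO and 2235 (8.03 FPKM) in flox/flox. The ratio was 0.629 (0.588 to 0.673), and 0.838% of the genes with a summed count of 1000 to 10000 had a lower one. Pfkfb2 (chr1:130689182-130729253, minus strand), known as the heart form, had 203 counts (0.955 FPKM) in scKO and 151 (0.668 FPKM) in flox/flox, a ratio of 1.39 (1.12 to 1.73). Pfkfb3 and Pfkfb2 thus differed in opposite directions, Pfkfb2 on far fewer counts. Pfkfb1, the form of liver and muscle, had 867 counts in scKO and 921 in flox/flox (ratio 0.975, 0.888 to 1.07), and Pfkfb4 had 524 in scKO and 492 in flox/flox (1.10, 0.974 to 1.251). Both intervals include 1. The makeup of the family differed with them: Pfkfb3 held 22.8% of its FPKM in scKO and 32.4% in flox/flox, and Pfkfb2 held 4.19% in scKO and 2.69% in flox/flox. Pfkfb1 held 53.8% in scKO and 49.3% in flox/flox, and Pfkfb4 19.3% in scKO and 15.6% in flox/flox. The order of Pfkfb1 and Pfkfb3 in flox/flox depends on the length used, since per merged exon length Pfkfb3 held 33.8% in scKO and 45.7% in flox/flox and Pfkfb1 40.7% in scKO and 35.5% in flox/flox. Exons of Pfkfb2 share 1262 bases on the same strand with the gene model Gm29427, which had 3 counts in scKO and 2 in flox/flox, and 154 bases on the opposite strand with Yod1, which had 71 counts in scKO and 92 in flox/flox. Whether counting used the strand is not given in the sources used here; Pfkp likewise shares 748 exonic bases with Pitrm1 on the other strand, which had 617 counts in scKO and 722 in flox/flox.

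The promoters of these regulators are shown because each holds the letters bound by CLOCK and BMAL1, printed in capitals. Both are on the minus strand of GRCm38, given 5′ to 3′ in the direction of the gene, and end at the base before a RefSeq start. For Pfkfb3 it is the window chr2:11502091-11502340 before 1 of its 2 starts, and for Pfkfb2 chr1:130715822-130716071 before 1 of its 3. The counts cover whole genes and do not show which start was used. The 30 bases after this Pfkfb2 start were not found in a GENCODE M21 transcript of the gene. Those after the Pfkfb3 start were.
Pfkfb3: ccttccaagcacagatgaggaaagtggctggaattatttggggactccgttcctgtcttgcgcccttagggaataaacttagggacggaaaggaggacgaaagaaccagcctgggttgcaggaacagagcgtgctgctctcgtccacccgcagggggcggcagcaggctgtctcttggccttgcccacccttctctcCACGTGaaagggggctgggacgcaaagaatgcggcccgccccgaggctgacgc
Pfkfb2: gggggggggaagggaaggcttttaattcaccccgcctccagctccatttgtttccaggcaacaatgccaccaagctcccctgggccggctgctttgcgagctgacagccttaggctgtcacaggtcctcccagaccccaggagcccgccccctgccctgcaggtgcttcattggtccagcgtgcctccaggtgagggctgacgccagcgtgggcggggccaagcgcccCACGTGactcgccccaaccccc

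**Figure D4:**
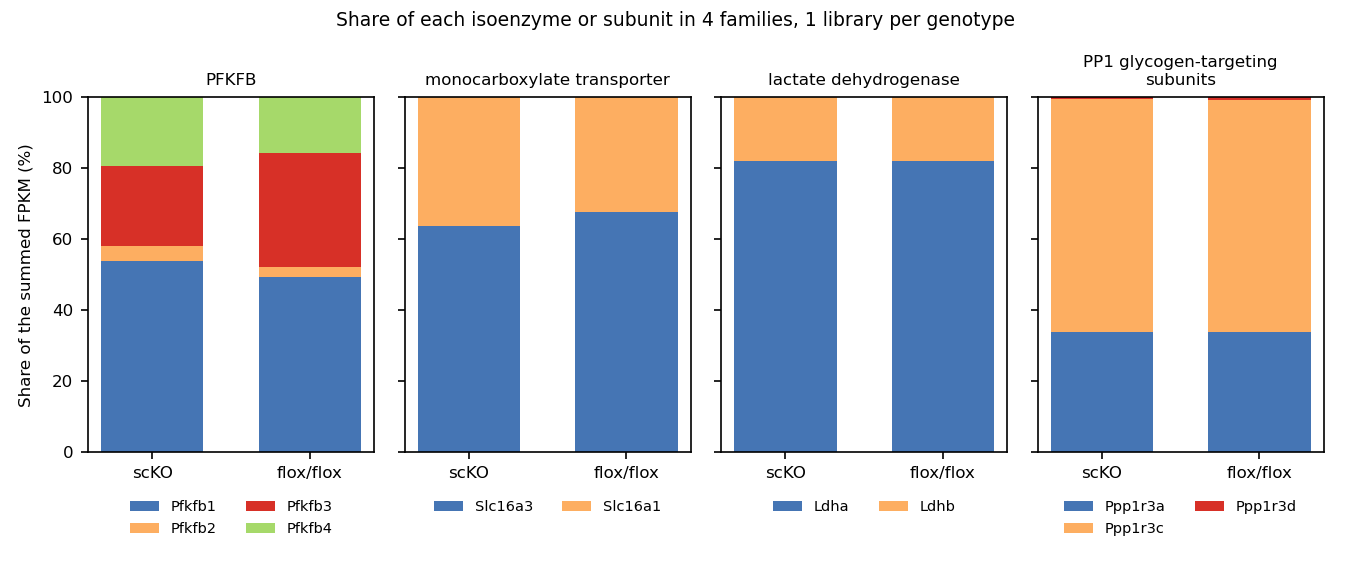
Share of the summed deposited FPKM (vertical axis, percent) held by each member of 4 families in the scKO library and the flox/flox library, 1 library each. The Pfkfb3 part is 22.8% in scKO and 32.4% in flox/flox, while the parts of Ldha and Ldhb coincide.

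In lower glycolysis, 5 of 7 genes had intervals below 0 and 1 above, and the median log2 ratio of the 7 was -0.21. None of the 7 was called. Over all compared genes, 12.3% had intervals below 0 and 12.8% above. Of those with a summed count of at least 1000, 20% lay below and 23.1% above. With total-count scaling 4 of the 7 lay below 0 and 1 above, against 9.7% and 16.6% of all compared genes. Gapdh, which oxidises the triose, had 5608 counts in scKO and 6960 in flox/flox (ratio 0.835, 0.806 to 0.865). Pgk1, which makes the first ATP of the pathway, had 8479 in scKO and 10419 in flox/flox (0.843, 0.819 to 0.868). These neighbouring steps had nearly the same ratio. Pgam2 had 20181 counts in scKO and 24193 in flox/flox (0.864, 0.848 to 0.881), while its widespread relative Pgam1 had 153 in scKO and 146 in flox/flox (1.09, 0.860 to 1.37). The muscle enolase Eno3 had 42737 in scKO and 50132 in flox/flox (0.883, 0.872 to 0.895). Eno1, the enolase of most other cells, stood beside it at 0.866 (0.758 to 0.989) on 412 counts in scKO and 493 in flox/flox. The last step did not share the difference: Pkm, the pyruvate kinase, had 38420 counts in scKO and 39124 in flox/flox (1.02, 1.003 to 1.03). Among the 235 genes with a summed count of at least 10000, 8.51% had a lower ratio than Gapdh, 8.94% than Pgk1, 11.9% than Pgam2 and 15.3% than Eno3, against 62.1% for Pkm. The 4 lower genes thus lay toward the low end of equally abundant genes, but not outside their range. Of the 8 fast fibre markers, all abundant in both libraries, 7 also had intervals below 0 and Myh1 above, with ratios of 0.823 to 1.21. This was not particular to fast fibre markers. Of the 6 slow fibre markers, 4 had intervals below 0 and 1 above, and of the 4 pan-muscle markers, 3 below and 0 above. The part of these markers in the result was not tested.

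The count of Gapdh is uncertain. GENCODE M21 annotates 122 pseudogenes with transcripts at least 95% identical to those of Gapdh over 200 bases or more, and 6 of them are in the count table, with 38 counts in scKO and 63 in flox/flox. The sources used here do not state what was done with reads of more than 1 match, so the level of Gapdh, 47.0 FPKM in scKO and 54.8 in flox/flox, may miss reads. The same holds in part for Gpi1, whose single such pseudogene in the table took 835 counts in scKO and 970 in flox/flox.

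None of the 4 lactate genes was called; the interval of 1 exporter lay below a ratio of 1 and those of the other 3 include 1. Ldha, the lactate dehydrogenase subunit of fast muscle, had 29435 counts (463 FPKM) in scKO and 30160 (446 FPKM) in flox/flox, a ratio of 1.01 (0.995 to 1.03). Ldhb, the subunit of heart and slow muscle, had 2746 (101 FPKM) in scKO and 2810 (97.0 FPKM) in flox/flox, a ratio of 1.01 (0.960 to 1.07). Their mix was the same in both libraries, with 82.1% (scKO) and 82.2% (flox/flox) of the FPKM in Ldha. Slc16a3, which encodes MCT4, the carrier by which glycolytic fibres release lactate, had 2643 counts in scKO and 3155 in flox/flox, a ratio of 0.868 (0.824 to 0.914). Slc16a1, which encodes MCT1, a carrier of lactate uptake, had 761 counts in each library (1.04, 0.936 to 1.15). Slc16a3 held 63.7% of the FPKM of the 2 carriers in scKO and 67.7% in flox/flox.

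Among genes that build glycogen, 2 enzymes were higher in scKO and the interval of the synthase includes a ratio of 1. Ugp2, which makes UDP-glucose, the donor for glycogen, had 10269 counts (174 FPKM) in scKO and 8736 (139 FPKM) in flox/flox, a ratio of 1.22 (1.18 to 1.253). Among the 235 genes with a summed count of at least 10000, 96.6% had a lower ratio. Gbe1, the branching enzyme, had 964 counts in scKO and 818 in flox/flox, a ratio of 1.22 (1.11 to 1.34). Both missed the fold set for a call and passed it with total-count scaling, at log2 ratios of 0.32 for Ugp2 and 0.33 for Gbe1. Muscle glycogen synthase, Gys1, had 5303 counts in scKO and 5421 in flox/flox (1.01, 0.976 to 1.05). Glycogenin, Gyg, the protein primer on which a glycogen particle starts, had 3801 in scKO and 3929 in flox/flox (1.002, 0.958 to 1.05). Of the 7 synthesis genes compared, 2 had intervals above 0 on the log2 scale, 1 below, and 4 included 0. The shares over all compared genes were 12.8% above and 12.3% below.

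The subunits that tie protein phosphatase 1 to glycogen, where it turns on the synthase, differed in how abundant they were. Ppp1r3c had 5425 counts in scKO and 5453 in flox/flox (1.03, 0.993 to 1.07), and Ppp1r3a, the form of striated muscle, had 7138 in scKO and 7183 in flox/flox (1.03, 0.996 to 1.06). Together they held over 99% of the FPKM of the 3 subunits. Ppp1r3d (chr2:178411206-178414472, minus strand), the rare one, had 44 counts (0.973 FPKM) in scKO and 70 (1.45 FPKM) in flox/flox, a ratio of 0.651 (0.436 to 0.963). Its interval reaches close to 1, and it has the fewest counts of the 3 called genes.

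Of 6 glycogen breakdown genes, the interval lay below 0 for 3, above 0 for 1 and included 0 for 2. Over all compared genes, 12.3% lay below 0 and 12.8% above. Of those with a summed count of at least 1000, 20% lay below and 23.1% above. Pygm, the muscle glycogen phosphorylase, had 89999 counts (1424 FPKM) in scKO and 100033 (1487 FPKM) in flox/flox, a ratio of 0.932 (0.924 to 0.941). Pygb, the brain form, had 82 counts in scKO and 87 in flox/flox, and Pygm held 99.9% of the phosphorylase FPKM in both. The subunits of phosphorylase kinase, which form 1 complex, did not share a direction. The regulatory subunit Phka1 had 12879 counts in scKO and 12184 in flox/flox (1.10, 1.07 to 1.12), while the regulatory subunit Phkb had 7323 in scKO and 8840 in flox/flox (0.858, 0.832 to 0.885). The catalytic subunit of muscle, Phkg1, had 8276 in scKO and 8950 in flox/flox (0.958, 0.930 to 0.987), and Phkg2, that of liver and testis, 134 in scKO and 127 in flox/flox (1.09, 0.851 to 1.40). The intervals of Phka1 and Phkb do not overlap, and no subunit was called.

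The glycerophosphate shuttle, which carries the electrons of cytosolic NADH to the mitochondria, differed little. Gpd1, its cytosolic enzyme, had 9687 counts (177 FPKM) in scKO and 9527 (164 FPKM) in flox/flox, a ratio of 1.05 (1.02 to 1.08). Gpd2, its mitochondrial enzyme, had 3646 (33.5 FPKM) in scKO and 3801 (32.8 FPKM) in flox/flox, a ratio of 0.994 (0.949 to 1.04).

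All 3 called genes carried CACGTG in a RefSeq promoter window, as did 5 that were not called. The windows run from 250 bases before to 50 after each start, and 39 of the 41 genes had 1 or more. In 44 of the 58 windows of these genes, the 30 bases after the start were found in a GENCODE M21 transcript of the gene. They were not found for the windows that hold the sites of Pfkfb2, Slc16a1 and Ldha. CACGTG, which reads the same on both strands, was found in 8 of the 39 (20.5%), against 11.9% of the 9658 compared genes with a window and 8.09% of all 27025 genes of the table. ACGTG on either strand, the core bound by HIF-1, which is part of CACGTG, was found in 22 of the 39 (56.4%), against 29.4% of the compared genes. A gene counted if any of its windows matched, so genes with more windows had more places for a match. By window, CACGTG was found in 8 of the 58, against 7.15% of all 32851 windows. For ACGTG it was 26 of the 58, against 19.6%. The sites are printed in the direction of the gene with 12 bases on each side, to show the letters around the E-box in the called genes, given first, and in the others; positions are those of the capitals in GRCm38.
Pfkfb2 (22 bases before the start, chr1:130715838-130715843): ggccaagcgcccCACGTGactcgccccaac
Pfkfb3 (53 bases before the start, chr2:11502138-11502143): cacccttctctcCACGTGaaagggggctgg
Ppp1r3d (226 bases before the start, chr2:178414684-178414689): gcagcctgaacaCACGTGacgaggttcccg
Gyg (9 bases into the transcribed part, chr3:20155103-20155108): agcctgcgcggcCACGTGacggccgctata
Slc16a1 (200 bases before the start, chr3:104638464-104638469): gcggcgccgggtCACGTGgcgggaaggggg
Ldha (145 bases before the start, chr7:46845659-46845664): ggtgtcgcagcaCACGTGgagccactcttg
Ldha (48 bases before the start, chr7:46845756-46845761): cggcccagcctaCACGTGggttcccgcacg
Pfkm (136 bases before the start, chr15:98092453-98092458): aattaagtatgcCACGTGaagtaagtaatt
Ppp1r3c (104 bases before the start, chr19:36736703-36736708): gagggaccggttCACGTGatctggctttga
The gene with 2 sites, Ldha, stood at a log2 ratio of 0.016, and the others that were not called, Gyg, Slc16a1, Pfkm and Ppp1r3c, at 0.0034 to 0.069. Of the called genes with a site, Pfkfb3 and Ppp1r3d were lower and Pfkfb2 was higher, so they did not share a direction.

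Other genes of the same pathways had single calls in both directions. Of 30 further glycogen genes, 27 were compared, 2 were called higher and 2 lower, near the shares over all compared genes, 7.18% and 7.54%. Stbd1, which tethers glycogen for degradation, had 490 counts in scKO and 400 in flox/flox (1.27, 1.11 to 1.45). Ppp1cc, a catalytic subunit of protein phosphatase 1, had 75 in scKO and 169 in flox/flox (0.460, 0.346 to 0.607), and Pgm2l1, a glucose bisphosphate synthase, 229 in scKO and 328 in flox/flox (0.723, 0.608 to 0.859). The abundant debranching enzyme and the muscle phosphoglucomutase were not called. Of 23 further transport genes, 18 were compared, with 1 called higher and 2 lower, again near the shares of 7.18% higher and 7.54% lower over all compared genes. The 2 lower genes encode the Rab GTPase-activating proteins that hold GLUT4 inside the cell. Tbc1d1 had 830 counts in scKO and 1115 in flox/flox (0.771, 0.704 to 0.845), and Tbc1d4 had 486 in scKO and 635 in flox/flox (0.793, 0.703 to 0.894). Aspscr1, which encodes the GLUT4 tether TUG, was higher, with 228 in scKO and 178 in flox/flox (1.33, 1.09 to 1.62).

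**Figure D5:**
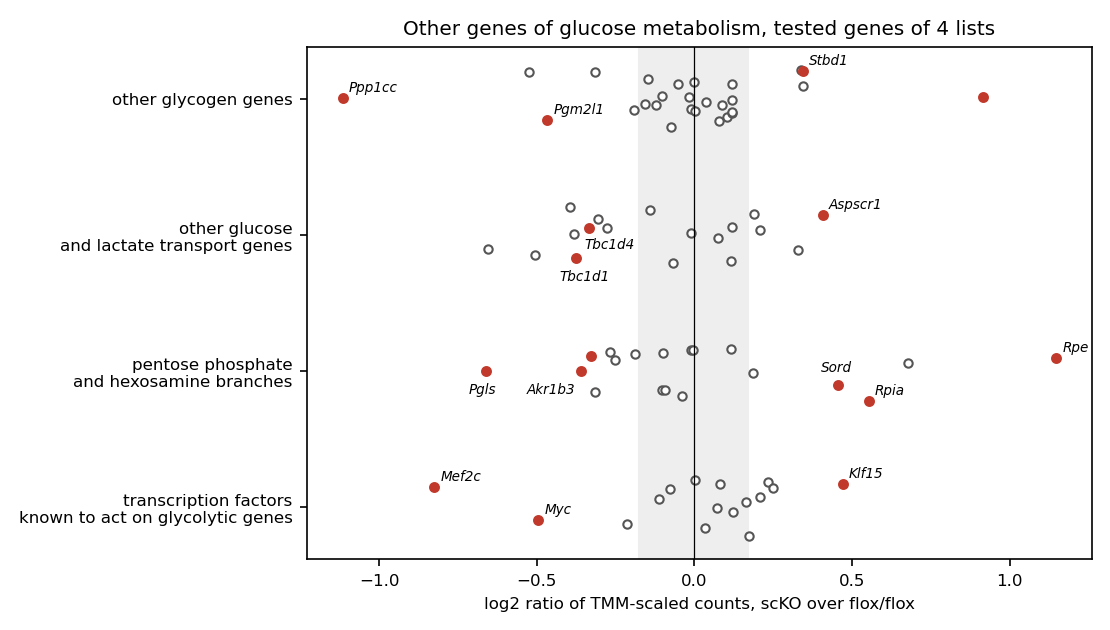
Log2 ratio of scKO over flox/flox (horizontal axis) for each compared gene of 4 further lists, for glycogen, transport, the pentose phosphate and hexosamine branches and transcription factors (rows, with points spread vertically for legibility). Red points are called, open points are not, and the grey band spans the quartiles of all compared genes; Rpe, at 1.15, and Ppp1cc, at -1.12, lie farthest out among the named genes.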

How the data were processed

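RNA of gastrocnemius was sequenced in 1 scKO and 1 flox/flox library. The deposited whole-number counts per Ensembl gene and the deposited FPKM values, 1 column per library per the file headers, were the starting point. The submitters' processing notes name GRCm38 as build, and StringTie 1.3.0, HISAT2 2.0.4 and CASAVA without saying what each did; annotation release, counting options and strand setting are not given in the sources used here. The deposited counts and FPKM hold the same measurement: dividing one by the other gave gene lengths that differed between libraries by at most 0.0198%. Symbols matched 34267 of 34745 identifiers.

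Library sizes were scaled with TMM (edgeR 4.0.16, R 4.3.3). The log2 ratio used a prior count of 0.5; a gene was compared at a summed count of at least 20. Intervals are exact (Clopper-Pearson). With 1 library per group there is no spread to test against, and no p-values are given. The genes and lists were chosen with earlier results of these data known. Full values were given for called genes and for the most abundant gene of each role, and for up to 5 called genes with at least 100 counts from each further list; every other member is given by counts, levels or ranges. Ppp1r3d is shown only around its E-box, since its upstream window holds an exon of a neighbouring gene. Positions, exon lengths and pseudogenes came from GENCODE M21 (BLAST 2.17.0), promoters from RefSeq (GRCm38.p6). Alternatives were total-count, upper-quartile and DESeq2 scaling, total counts without mitochondrial genes, summed-count filters of 1 and 100, a prior count of 5, a 2-fold call, shares by counts, length correction, the log2(FPKM + 0.1) scale and, chosen after seeing the data, GC correction and merged exon length. DESeq2 1.42.0 gave size factors only. A further list of glycolytic enzymes is not reported here.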

Additional observations from a re-analysis of the deposited data

How the results depend on the processing

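The same 3 genes, Pfkfb2 higher and Pfkfb3 and Ppp1r3d lower, were called under every scaling, filter, prior count and correction tried; at 2-fold 0 were called higher and 0 lower, and over all genes 189 were then called higher and 242 lower, against 909 and 955. With total-count scaling, and likewise without mitochondrial genes, 3 of the genes were called higher, Ugp2 and Gbe1 besides Pfkfb2, while over all genes 1126 and 1123 were called higher and 797 and 804 lower; the median log2 ratio of the 40 was 0.048 and 0.047. On the log2(FPKM + 0.1) scale 2 were called higher, Ugp2 besides Pfkfb2, and the median was 0.048. These scalings moved the median of all genes by about as much, to 0.040, 0.040 and 0.038. Without mitochondrial genes in the denominator the genes held 5.035% of the counts in scKO and 5.034% in flox/flox. Single log2 ratios left their counting interval for 9 of 40 genes with total-count scaling, for 9 without mitochondrial genes, for 9 on the FPKM scale, for 1 with length correction and for 1 with GC correction, and for none with DESeq2 size factors, upper-quartile scaling, a prior count of 5 or either filter. The log2 ratio of Pfkfb3 ran from -0.68 to -0.62, that of Pfkfb2 from 0.46 to 0.52 and that of Ppp1r3d from -0.62 to -0.54. Across the scalings the log2 ratios of Aldoa, Gpi1, Pfkfb1, Pfkp, Gyg, Pygb and Gpd2, all close to 0, took either sign. Shares within isoenzyme families depended on the length: 19 of 56 moved by more than their counting error with merged exons, and 45 of 56 when counts were used in place of FPKM.

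No paired analysis was possible because each genotype has 1 library. For the same reason no library was left out, and the spread between animals is unknown. Depth limits the rare isoenzymes: with at most 115 counts per library, the intervals of Slc2a1, Hk1, Pfkl, Pfkp and Pygb include differences as large as a call.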

Other observations

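A list of the pentose phosphate and hexosamine branches, which lead sugar phosphates away from glycolysis, also held the sorbitol enzymes Sord and Akr1b3. Of its 19 genes, all compared, 3 were called higher and 3 lower in scKO, where 7.18% and 7.54% of all compared genes were. The hexosamine genes Gfpt1, Gfpt2, Gnpnat1, Pgm3 and Uap1 were not called. The 2 enzymes that interconvert the pentose phosphates were both higher. Rpe, the epimerase, had 146 counts in scKO and 68 in flox/flox (ratio 2.22, 1.66 to 3.01). Rpia, the isomerase, had 255 in scKO and 180 in flox/flox (1.47, 1.21 to 1.79). Sord, which oxidises sorbitol to fructose, was also higher, with 960 in scKO and 726 in flox/flox (1.37, 1.24 to 1.51). Akr1b3, the aldose reductase that makes sorbitol, was lower, with 415 in scKO and 552 in flox/flox (0.779, 0.684 to 0.886). Pgls, the lactonase of the oxidative part, had 98 in scKO and 161 in flox/flox (0.631, 0.486 to 0.816). Rpe had a ratio above 2 with an interval that excludes 1.

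Of 16 transcription factors known to act on glycolytic genes, 1 was called higher and 2 lower, where 7.18% and 7.54% of all compared genes were. Mef2c, a muscle factor that acts on metabolic and contractile genes, had 4909 counts in scKO and 9009 in flox/flox (0.565, 0.545 to 0.585). Myc had 69 in scKO and 101 in flox/flox (0.708, 0.513 to 0.971). Klf15, which responds to glucocorticoids and has a daily rhythm in muscle, had 623 in scKO and 466 in flox/flox (1.39, 1.23 to 1.57). Hif1a, the oxygen-regulated factor of glycolytic genes, had 306 in scKO and 302 in flox/flox (1.05, 0.893 to 1.23).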
